A study of Mus musculus with 2 samples.

Results

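The early B lineage genes described here are 9 genes of pro-B and pre-B cells, the committed precursors from which B lymphocytes arise, chosen by symbol: Ebf1, Pax5, Cd79b, Vpreb1, Vpreb3, Igll1, Rag1, Rag2 and Il7r. A measured target was used for 8 of them, out of 23930 targets in all, and the level of Vpreb1 was not analysed here. They were read in 2 libraries of bulk RNA made from cranial suture tissue (the coronal, sagittal and lambdoid sutures) of wildtype mouse pups at postnatal day 3, with no treatment named. The libraries are called library 1 and library 2 after their replicate numbers, share batch number 1 and form 1 group, so no conditions could be compared. The cell type is labelled "Suture stem cells", while the protocol describes whole tissue with no sort. All 10 markers of suture mesenchyme and bone examined reached 1 CPM (reads of a gene per 1000000 reads of its library) in both libraries, led by Col1a1, Alpl and Runx2 at means of 126033, 412 and 189 CPM. Marrow is not named in the labels, so the word is not used for the source of these reads.

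B lymphocytes develop in marrow, and before birth in liver, through ordered steps. Ebf1 and Pax5 are the transcription factors that commit a progenitor to the B lineage. Rag1 and Rag2 cut the immunoglobulin genes for V(D)J recombination. Once a heavy chain is made, it is carried to the surface with a surrogate light chain, built in mouse from the products of Igll1 and of Vpreb1 or Vpreb2, and with the signalling chains Cd79a and Cd79b. This complex is the pre-B cell receptor. Il7r codes for the receptor chain through which the stromal cytokine IL-7 sustains these precursors in mouse.

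Promoters are shown for Igll1 and Vpreb3, which were both at a higher CPM in library 1, and for Ebf1, which was at a higher CPM in library 2. Each is 300 bases from RefSeq on GRCm38.p6, from 250 bases before to 50 bases after an annotated start, 5′ to 3′ on the strand of the gene. Capitals mark matches, on both strands, to CCCNNGGG (the core of the EBF motif), CANNTG (the E-box bound by E proteins) and TGGGAA (an Ikaros motif). The regions are chr16:16863936-16864235 on the minus strand for Igll1, chr10:75948050-75948349 on the plus strand for Vpreb3 and chr11:44619978-44620277 on the plus strand for the downstream of the Ebf1 starts.
Igll1: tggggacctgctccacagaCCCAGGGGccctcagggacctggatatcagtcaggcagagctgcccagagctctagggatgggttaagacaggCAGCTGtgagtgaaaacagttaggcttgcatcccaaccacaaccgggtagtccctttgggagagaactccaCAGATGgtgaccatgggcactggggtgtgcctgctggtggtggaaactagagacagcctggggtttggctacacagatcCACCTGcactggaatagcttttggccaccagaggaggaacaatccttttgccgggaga
Vpreb3: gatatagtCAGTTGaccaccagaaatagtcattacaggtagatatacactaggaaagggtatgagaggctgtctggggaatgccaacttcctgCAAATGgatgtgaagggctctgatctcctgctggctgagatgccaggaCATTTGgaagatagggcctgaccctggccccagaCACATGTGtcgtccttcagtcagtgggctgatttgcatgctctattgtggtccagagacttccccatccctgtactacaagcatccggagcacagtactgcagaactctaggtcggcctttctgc
Ebf1: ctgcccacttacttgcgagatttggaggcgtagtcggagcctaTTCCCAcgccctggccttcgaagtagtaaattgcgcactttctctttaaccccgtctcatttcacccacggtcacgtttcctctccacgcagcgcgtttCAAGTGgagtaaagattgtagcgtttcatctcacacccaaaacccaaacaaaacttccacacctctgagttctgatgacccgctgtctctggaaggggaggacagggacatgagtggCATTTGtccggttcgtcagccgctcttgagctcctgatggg

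The table held 9 promoters of 8 of the 9 genes, Ebf1 with 2 starts and Cd79b with none. These 8 include Vpreb1 and so differ from the 8 genes with a measured target. The EBF core was found in 1 of the 9, that of Igll1, where it reads CCCAGGGG from base -231 to -224, and in 13.7% of all 32851 promoters of this length. An E-box was found in 8 of the 9, and in 72.3% of all promoters. Vpreb3 held 5 E-boxes, of which CACATG and CATGTG overlap. TGGGAA, in either orientation, was found in 2 of the 9, one of the Ebf1 promoters and that of Rag1, against 25.6% of all promoters. These are matches of letters and not measured binding.

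Mean levels ran from 0.430 CPM for Rag2 to 56.1 CPM for Ebf1, which stood above the next gene, Cd79b, in both libraries. Of the 8 genes, 6 reached 1 CPM in both libraries (75.0%, against 55.0% of all targets), and 2, Ebf1 and Cd79b, reached 10 CPM in both. Their median level was 5.84 CPM, against 3.29 CPM over all targets. Library 1 held 5663344 reads and library 2 held 15802610. The limit of 3 reads, a one-sided 95% bound for a count of 0, thus corresponds to 0.530 and 0.190 CPM. The exact 95% interval of a count of 0 reaches higher, to 0.651 and 0.233 CPM. Each gene is read through 1 amplicon with its own efficiency. The order of genes therefore describes reads and not transcripts, whereas 1 gene can be compared between libraries. Intervals given below are exact 95% intervals for counting error only, since the panel reads carry no molecular identifiers.

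**Figure D1:**
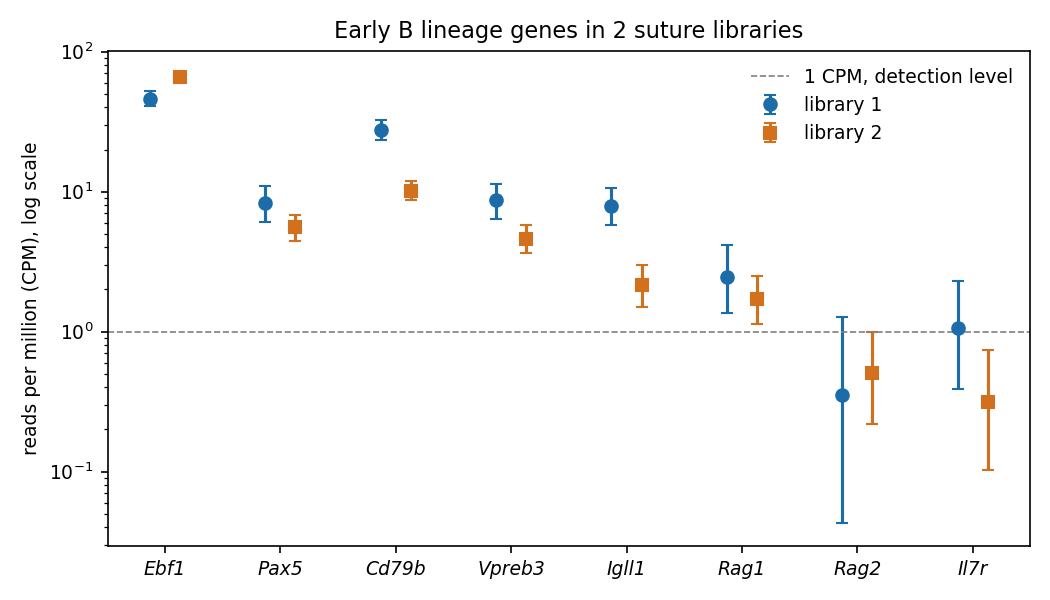
Level of each early B lineage gene in CPM (log axis) in library 1 (circles) and library 2 (squares), with exact 95% Poisson intervals of the reads. Ebf1 is higher in library 2, Cd79b, Vpreb3 and Igll1 are higher in library 1 with intervals that do not overlap, and Rag2 lies below the dashed line of 1 CPM in both libraries.

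Ebf1, the pioneer factor that opens B lineage chromatin, was read at 46.1 CPM in library 1 (261 reads, interval 40.7 to 52.0) and at 66.1 CPM in library 2 (1044 reads, interval 62.1 to 70.2), a mean of 56.1 CPM ± 14.1 (SD, n = 2). It alone supplied 44.9% of the summed CPM of the 8 genes in library 1 and 72.5% in library 2. Pax5, which represses the genes of other lineages in B cell precursors, was read at 8.30 CPM in library 1 and 5.57 CPM in library 2 (47 and 88 reads), a mean of 6.93 CPM ± 1.93 (SD, n = 2). The CPM of Pax5 was thus higher in library 1, in the direction opposite to Ebf1. However, the interval of its ratio, 1.02 to 2.15, reached nearly to 1, and Pax5 was not called by the test described below. Reads of Ebf1 outnumbered those of Pax5 5.55 to 1 in library 1 (interval 4.06 to 7.75) and 11.9 to 1 in library 2 (interval 9.54 to 14.9).

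The next genes code for parts of the pre-B cell receptor or for a helper of its assembly. Cd79b, whose product passes the receptor signal on, was read at 27.7 CPM in library 1 and 10.2 CPM in library 2, a mean of 19.0 CPM ± 12.4 (SD, n = 2). Its 157 and 161 reads came from libraries that differ 2.79-fold in depth. Igll1, the lambda 5 part of the surrogate light chain, was read at 7.95 CPM in library 1 and 2.15 CPM in library 2 (45 and 34 reads), a mean of 5.05 CPM ± 4.10 (SD, n = 2). Vpreb3, a relative of the Vpreb genes whose product binds immunoglobulin chains inside the cell and is no part of the surface receptor, was read at 8.65 CPM in library 1 and 4.62 CPM in library 2 (49 and 73 reads), a mean of 6.64 CPM ± 2.85 (SD, n = 2). All 3 genes were higher in library 1 by CPM. Vpreb2, another surrogate light chain gene, had no read in either library, below 0.530 and 0.190 CPM. Vpreb2 is a close copy of Vpreb1 in mouse, and the sources used here do not say how reads shared by both were treated.

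The recombination genes were low. Rag1, which holds the catalytic site of the recombinase, was read at 2.47 CPM in library 1 and 1.71 CPM in library 2 (14 and 27 reads), a mean of 2.09 CPM ± 0.540 (SD, n = 2). Rag2, its partner subunit, was read at 0.353 CPM in library 1 and 0.506 CPM in library 2, a mean of 0.430 CPM ± 0.108 (SD, n = 2). Its 2 reads in library 1 lie under the limit of 3 reads, so Rag2 was barely measured. Reads of Rag1 outnumbered those of Rag2 in each library, 14 to 2 in library 1 and 27 to 8 in library 2, where the ratio was 3.38 (interval 1.49 to 8.60). Both lie on mm10 chromosome 2, Rag1 from 101638282 to 101649501 on the minus strand and Rag2 from 101624718 to 101632529 on the plus strand, 5752 bases apart. The annotated gene B230118H07Rik, on the minus strand like Rag1, spans both and was read at 6.18 and 5.32 CPM. The sources used here do not say whether the counting used strand. Strand could set its reads apart from those of Rag2 but not from those of Rag1, so the Rag values are uncertain to that extent.

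Il7r, the receptor chain for IL-7, was read at 1.06 CPM in library 1 and 0.316 CPM in library 2 (6 and 5 reads), a mean of 0.688 CPM ± 0.525 (SD, n = 2). It reached 1 CPM in library 1 only. Along the genome, Igll1 lies on chromosome 16 from 16860671 to 16863985 and Vpreb1 begins 4417 bases beyond it. Cd79b lies on chromosome 11 from 106311341 to 106314762 and Ebf1 on the same chromosome from 44617317 to 45008091. Pax5 lies on chromosome 4 from 44524757 to 44710487, Vpreb3 on chromosome 10 from 75943057 to 75949657 and Il7r on chromosome 15 from 9505788 to 9530176. The sources used here do not place the amplicons within the genes.

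Between the libraries, Cd79b, Vpreb3 and Igll1 were higher in library 1, Ebf1 was higher in library 2, and Pax5, Rag1, Rag2 and Il7r were not called. Each target was tested with an exact two-sided binomial test of its reads against the depths, with p-values adjusted by the Benjamini-Hochberg method over all targets and called at 0.05. The test compares 2 libraries and covers counting error only. It called 17.1% of all targets higher in library 1 and 20.0% higher in library 2. Among targets at a mean of 1 to 10 CPM, where Pax5, Vpreb3, Igll1 and Rag1 lie, it called 16.0% and 25.1%, and among those at 10 to 100 CPM, where Cd79b and Ebf1 lie, 30.7% and 35.6%. With such backgrounds, 3 and 1 calls among 8 genes do not set these genes apart. Whether each library is a separate pup or pool is not in the labels, so what separates these samples may be technical.

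Igll1 had the highest ratio of the called genes, 3.69-fold higher in library 1 (interval 2.31 to 5.95, adjusted p = 6.73e-08 in the exact binomial test). Cd79b was 2.72-fold higher (interval 2.17 to 3.41, adjusted p = 3.29e-17, exact binomial test) and Vpreb3 1.87-fold higher (interval 1.28 to 2.73, adjusted p = 0.00331, exact binomial test). Ebf1 was 1.43-fold higher in library 2 (interval 1.25 to 1.65, adjusted p = 5.25e-07, exact binomial test). Pax5 was at a ratio of 1.49 toward library 1 with adjusted p = 0.0801 in the exact binomial test. Il7r and Rag1 were at ratios of 3.35 (interval 0.851 to 13.9) and 1.45 (interval 0.701 to 2.86), and Rag2 at 0.698 (interval 0.0722 to 3.50), so a difference in either direction could not be resolved at these read numbers. The median difference of the 8 genes was 0.57 on the scale of log2(CPM + 1), library 1 minus library 2, against 0.00 over all targets, and 0.26 with a pseudocount of 5 CPM.

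Summed over the 8 genes, library 1 held 103 CPM and library 2 held 91.1 CPM. Without Ebf1 the sums were 56.5 and 25.1 CPM, a ratio of 2.25 (interval 1.94 to 2.62). The summed level of the 7 genes other than Ebf1 was thus higher in library 1, while Ebf1 itself was higher in library 2. In bulk tissue, fewer cells of a type and less RNA per cell cannot be told apart.

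Among other genes of early B cells, those called were higher in library 1, as were Cd79b, Vpreb3 and Igll1. Of 20 such genes listed, 18 had a target that was used (Cd79a was not analysed here), 15 reached 1 CPM in both libraries, 9 were called higher in library 1 and 0 higher in library 2, where 2 had an unadjusted p under 0.05. With the adjustment over only those targets whose mean reached 1 CPM, the counts were 9 and 1. Their median difference was 0.59 on the log2(CPM + 1) scale. Blnk, the adaptor that links the pre-B cell receptor to its kinases, was read 102 and 223 times, at a ratio of 1.28 toward library 1, and was not called (adjusted p = 0.109, exact binomial test). The 3 most abundant genes of the list are not restricted to B cells. Cd24a, a surface protein of many immature cells, stood at 207 and 223 CPM, Ctse, a protease also known from red cells, at 79.5 and 34.7 CPM, and Bach2, a transcriptional repressor, at 24.7 and 24.2 CPM.

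Dntt, the terminal transferase that adds untemplated bases at V(D)J junctions and is known to be scarce in B cell precursors around birth, differed most within this list. It was read 38 times in library 1 and 4 times in library 2, at 6.71 and 0.253 CPM. Its level in library 1 was 26.5-fold that in library 2 (interval 9.54 to 102, with adjusted p = 4.66e-17 by the exact binomial test), and this interval lay above those of Cd79b and Igll1. Thymocytes also use Dntt, Rag1 and Rag2. Ptcra, the pre-T cell receptor alpha chain, had no read in either library, and Cd3e, a T cell receptor signalling chain, was read at 1.06 and 1.20 CPM.

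**Figure D2:**
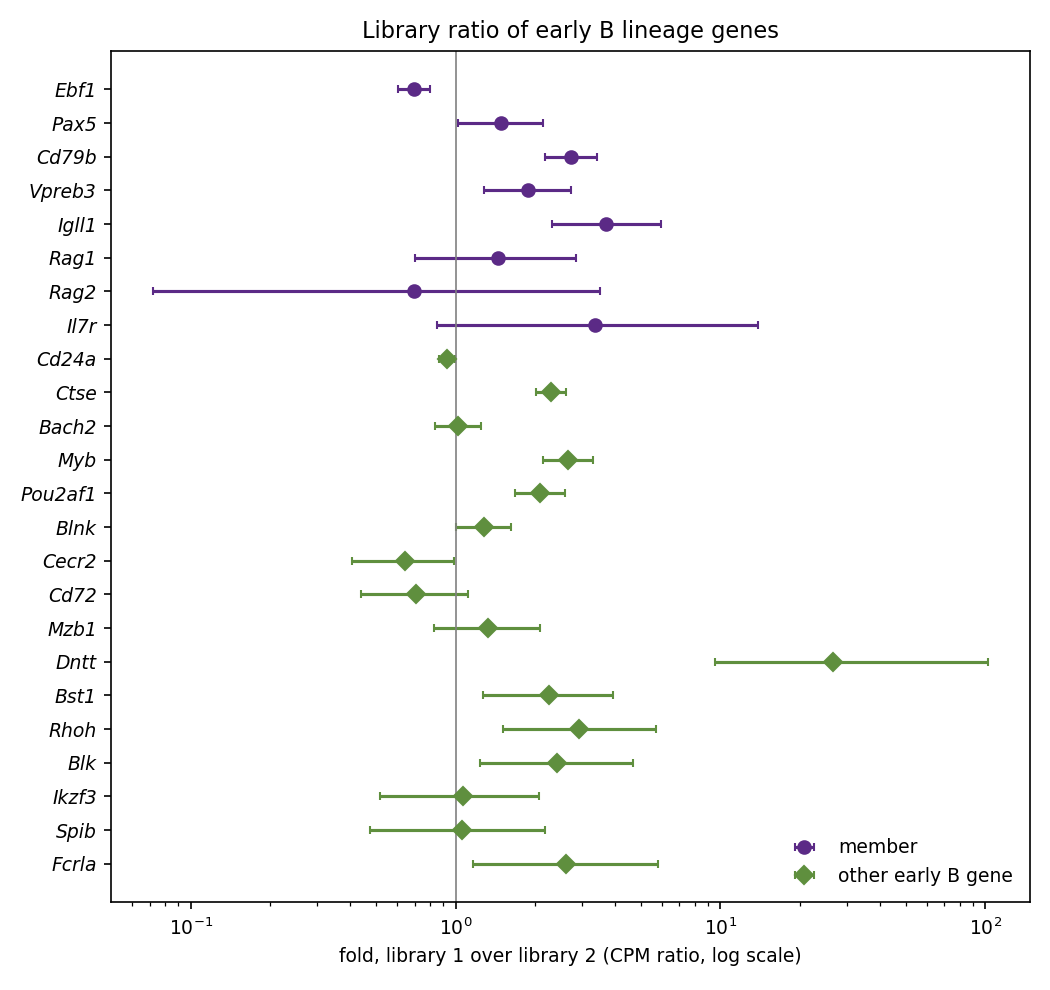
Ratio of CPM, library 1 over library 2 (log axis), for the 8 early B lineage genes (circles) and 16 of the 17 other early B genes with reads in both libraries (diamonds), with exact 95% intervals of the read ratio. All plotted genes called by the exact binomial test except Ebf1, at 0.698, lie right of 1, and Dntt lies farthest right at 26.5.

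Ebf1 is also known from cells outside the B lineage, among them olfactory sensory neurons, where it was first described as Olf-1, adipocyte precursors and the stromal cells of marrow. Its paralogs were read in the same libraries. Ebf3, known from the stromal niche cells of marrow, was read at 50.1 CPM in library 1 and 102 CPM in library 2 and was 2.04-fold higher in library 2 (interval 1.79 to 2.32, adjusted p = 1.82e-31 in the exact binomial test). Ebf2, known from brown fat and bone progenitors, was read at 18.7 and 27.4 CPM and was 1.46-fold higher in library 2 (interval 1.18 to 1.83, adjusted p = 0.00114, exact binomial test). Ebf4 was read at 13.6 and 14.6 CPM and was not called. Ebf1 per read of Ebf2 was 2.46 in library 1 (interval 1.96 to 3.12) and 2.41 in library 2 (interval 2.15 to 2.70), so these intervals overlap. Ebf1 per read of Ebf3 was 0.919 in library 1 (interval 0.774 to 1.09) and 0.647 in library 2 (interval 0.598 to 0.700), intervals that lie apart. Per read of Cd79b, Ebf1 went from 1.66 in library 1 (interval 1.36 to 2.04) to 6.48 in library 2 (interval 5.49 to 7.70), intervals that lie apart.

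**Figure D3:**
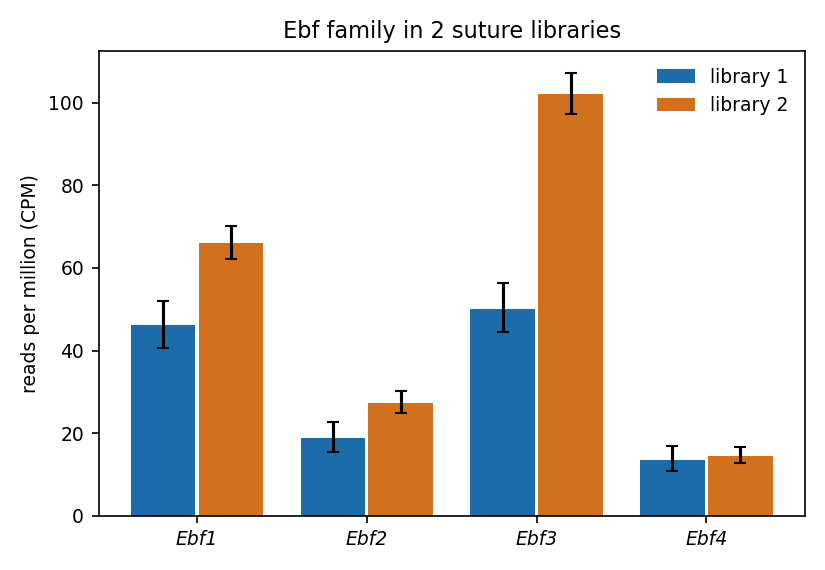
Level in CPM of Ebf1, Ebf2, Ebf3 and Ebf4 in library 1 and library 2 as bars from 0, with exact 95% Poisson intervals of the reads. Ebf1, Ebf2 and Ebf3 are higher in library 2, and Ebf4 stands at 13.6 and 14.6 CPM.

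Olfactory genes were higher in the same library as Ebf1. Of 12 genes of olfactory sensory neurons, 10 were higher in library 2 and 0 in library 1 (0 at an unadjusted p under 0.05), and their summed levels were 144 and 641 CPM in libraries 1 and 2. Omp, the olfactory marker protein, was read at 11.1 and 247 CPM, and Cnga2, the channel of odour transduction, at 1.24 and 27.0 CPM. Adcy3 and Gnal, of the same cascade, averaged 109 and 39.8 CPM, and none of the 12 genes was at 0 in both libraries. Of 10 markers of adipocytes and Ebf-using stroma, led by Fabp4, Zfp423 and Lpl at 135, 101 and 86.2 CPM, 3 were higher in library 2 and 2 in library 1, with sums of 395 and 448 CPM. Of the 10 markers of suture mesenchyme and bone, 7 were higher in library 2 and 1 in library 1. The part of olfactory, fat, stromal or suture cells in the Ebf1 difference was not tested.

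Pax5 is also known from the midbrain-hindbrain boundary of the embryo. Of 8 markers of that region measured, 4 reached 1 CPM in both libraries, and the median level was 1.23 CPM. En1, Lmx1b and Otx2 led at 15.8, 12.9 and 11.2 CPM. Among the 8, these 3 were higher in library 2 and 0 were higher in library 1 (0 at an unadjusted p under 0.05). The other 5 were not called and had means of 1.52 CPM or less. The sums of 20.5 and 66.8 CPM thus rest mostly on En1, Lmx1b and Otx2. Whether the reads of these 3 genes came from neural cells was not tested. The Pax5 paralogs of that boundary had fewer reads than Pax5, through other amplicons, so this does not rank transcripts. Pax2 was read 2 and 17 times, and Pax8 0 and 7 times, against 47 and 88 reads of Pax5. The part of neural cells in the Pax5 reads was not tested.

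Markers of neutrophils and red cells were, for the most part, higher in the same library as Cd79b, Vpreb3 and Igll1. Of 10 neutrophil markers, 8 were higher in library 1 and 1, Ltf, in library 2, with sums of 1171 and 619 CPM. Ngp, a granule protein gene, led at 433 and 122 CPM, followed by Ltf and S100a9 at means of 167 and 157 CPM. Ltf was read at 99.4 CPM in library 1 and 235 CPM in library 2. Of 9 erythroid markers measured, 7 were higher in library 1 and 0 in library 2 (0 at an unadjusted p under 0.05), with sums of 1574 and 1314 CPM, led by Alas2 and Slc4a1 at 639 and 634 CPM. Of 10 macrophage markers, 5 were higher in library 1 and 1, Csf1r, in library 2, with sums of 623 and 452 CPM. Lyz2, Cd68 and Csf1r led at means of 232, 135 and 80.9 CPM. None of the genes in these 3 lists was at 0 in both libraries. Ptprc, the common leukocyte antigen, was read at 4.06 and 6.96 CPM and was higher in library 2, at the edge of the threshold (adjusted p = 0.0488, exact binomial test) and not with either other scaling. Per read of Ptprc, a measure chosen after its values were seen, Cd79b went from 6.83 in library 1 (interval 4.39 to 11.1) to 1.46 in library 2 (interval 1.14 to 1.88) and Igll1 from 1.96 (interval 1.16 to 3.39) to 0.309 (interval 0.204 to 0.458). On the same measure the intervals of Pax5 (2.04 and 0.800) and Vpreb3 (2.13 and 0.664) also lay apart, while those of Ebf1 (11.3 and 9.49) and Rag1 (0.609 and 0.245) overlapped. The part of neutrophils, red cells and macrophages in the differences was not tested.

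**Figure D4:**
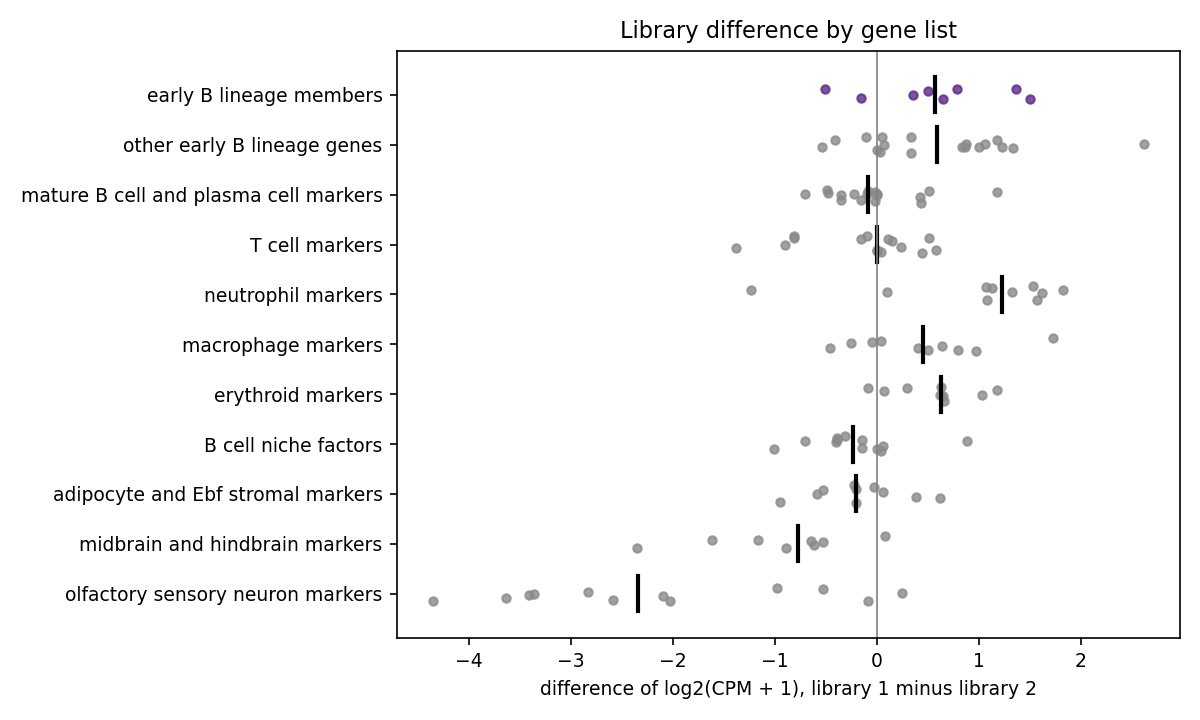
Difference of log2(CPM + 1), library 1 minus library 2, for each gene of 11 lists, with a black bar at the median of each list and small vertical offsets to separate points. The early B lineage members have a median of 0.57, neutrophil markers of 1.23 and olfactory sensory neuron markers of -2.35.

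Markers of later B lineage stages were mixed in level. Of 17 markers of mature B and plasma cells, 7 reached 1 CPM in both libraries, at a median level of 0.834 CPM, with 2 higher in library 1 and 3 in library 2. The most abundant, Sdc1, Cd74 and Cd37 at 116, 72.2 and 13.7 CPM, are also expressed by other cells. Cd22, an inhibitory receptor of B cells, was read at 1.77 CPM in both libraries, and Ms4a1, which codes for CD20 of mature B cells, 1 and 8 times, a mean of 0.342 CPM. Jchain, of antibody-secreting cells, had no read in either library. These levels rest on different amplicons and do not count cells.

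Lymphoid cells that share Rag1, Rag2 or Il7r with B cell precursors were also looked for. Of 15 T cell markers, 6 reached 1 CPM in both libraries, with sums of 29.5 and 49.2 CPM, 0 were higher in library 1 (0 at an unadjusted p under 0.05) and 2 in library 2. These 2 were Bcl11b and Tcf7, transcription factors also expressed outside T cells, at means of 16.7 and 9.32 CPM, followed by Cd4 at 5.85 CPM. Of 12 markers of innate lymphoid and NK cells, led by Rora, Kit and Nkg7 at 21.3, 16.7 and 1.94 CPM, 5 reached 1 CPM in both libraries, 2 were higher in library 1 and 1 in library 2. Of 9 markers of plasmacytoid dendritic cells, led by Runx2, Irf8 and Bst2 at 189, 21.9 and 19.9 CPM, 3 were higher in library 1 and 2 in library 2. Those higher in library 1 were Irf8, Bst2 and Siglech, the last with 6 and 1 reads. Those higher in library 2 were Runx2 and Klk1, the latter at 0.177 CPM in library 1 and 20.5 CPM in library 2. Runx2 is foremost a bone factor in this tissue. Of 9 genes of haematopoietic progenitors measured, led by Cd34, Cd93 and Ly6a at 128, 52.0 and 28.8 CPM, 4 were higher in library 1 and 1 in library 2.

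**Figure D5:**
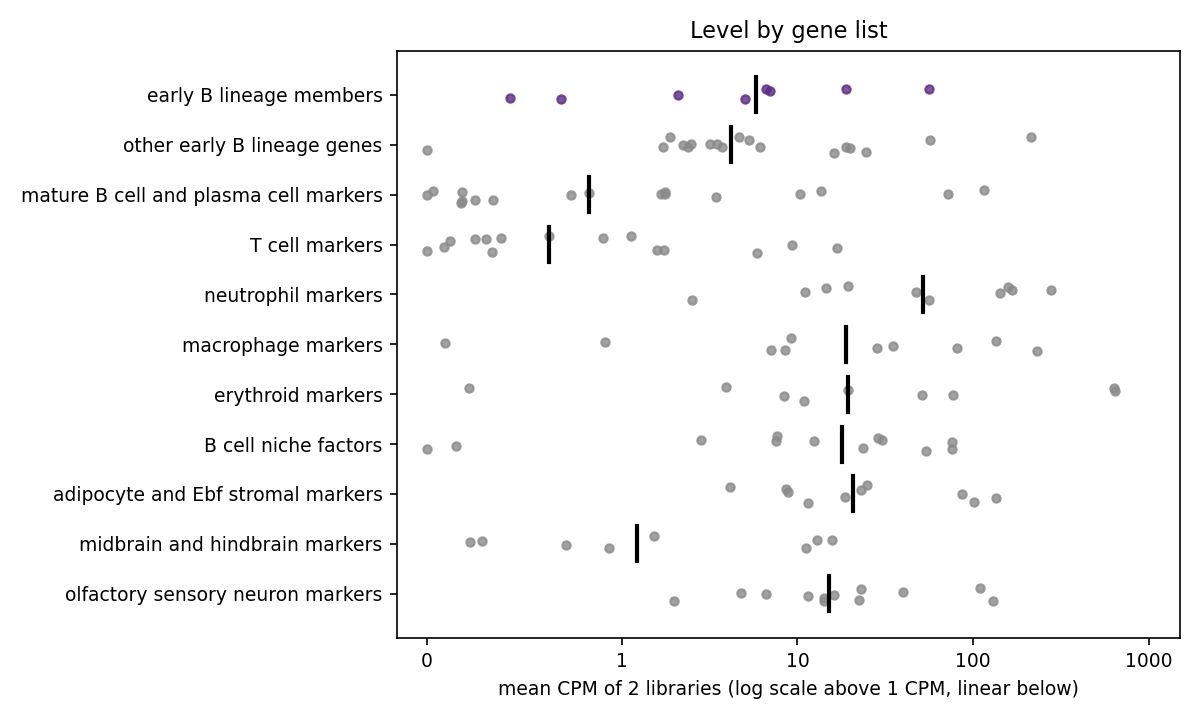
Mean CPM of each gene over 2 libraries (log axis above 1 CPM, linear below) for 11 lists, with a black bar at the median of each list and small vertical offsets. The early B lineage members have a median of 5.84 CPM, above the 0.834 CPM of mature B and plasma cell markers and the 0.626 CPM of T cell markers, and below the 51.6 CPM of neutrophil markers.

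The factors that act before or beside Ebf1 and Pax5 were higher in library 2 or not called. All 14 genes of this kind reached 1 CPM in both libraries, 9 were higher in library 2 and 0 in library 1 (0 at an unadjusted p under 0.05). Most serve other tissues as well. Runx1, Tcf4 and Cbfb led at 143, 128 and 126 CPM. Tcf3, which codes for the E proteins that bind E-boxes with Ebf1 in early B cells, was read at 58.4 and 72.7 CPM. Signal transducers of the pre-B cell receptor and of IL-7 were mixed, with 4 of 14 higher in each library. Jak1, Ccnd2 and Stat5b led at 164, 137 and 57.1 CPM. Il2rg, the chain that pairs with Il7r, was read 1 time in each library. Of 8 recombination partners measured, all of which reached 1 CPM in both libraries, 4 were higher in library 1 and 1 in library 2. Xrcc6, Dclre1c and Prkdc, of end joining, led the list, with Xrcc6 at 42.5 CPM, Dclre1c at 19.3 CPM and Prkdc at 20.7 and 9.30 CPM in the 2 libraries.

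Most genes listed for the niche of B cell precursors, signals and stromal cell genes alike, were detected, while the Il7r ligands had few or no reads. Of 12 niche genes, 10 reached 1 CPM in both libraries, led by Ebf3 and Igf1 at 76.1 CPM each and by Cxcl12, the chemokine that holds precursors in the niche, at 54.1 CPM ± 1.15 (SD, n = 2). Il7, the ligand of Il7r, had 1 and 2 reads in the 2 libraries, under the limit of 3 reads in each. Tslp, a cytokine that also signals through Il7r, had no read in either library, which allows up to 0.530 and 0.190 CPM. Flt3l, the ligand of a receptor on lymphoid progenitors, was read at 6.71 and 8.61 CPM and was not called. Among the 12, 5 were higher in library 2 and 1, Kitl, was higher in library 1. As a background, 15 genes of unsampled tissues (liver, kidney, pancreas, retina and testis) had a median of 0.594 CPM, and 3 of them, Ttr, Apoa2 and Cela1, reached 1 CPM in both libraries. The highest by mean were Ttr, which the choroid plexus also makes, at 33.7 CPM, and Apoa2 and Alb at 3.31 and 3.07 CPM. Of these 15, 4 were higher in library 1, among them Ttr, Apoa2 and Alb, and 1 was higher in library 2. Ttr was read at 62.7 CPM in library 1 and 4.62 CPM in library 2, a ratio of 13.6. Apoa2 and Alb were at ratios of 4.81 and 18.4 toward library 1, against 3.69 for Igll1 and 26.5 for Dntt. Large ratios toward library 1 were thus not limited to B lineage genes.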

How the data were processed

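Total RNA was taken from suture tissue and amplified with the Ion AmpliSeq mouse transcriptome panel, 1 amplicon target per gene, per the labels' protocols. Per the submitters' processing notes the build was mm10. No aligner, counter or filter is named in the sources used. Values were deposited by the authors as CPM, scaled within each library. Dividing by the CPM of 1 read (0.177 in library 1 and 0.0633 in library 2) gave whole reads, within 0.01 of a read, for 100% of values above 0 in each library. A date had replaced 27 symbols, which were restored from target names.

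The binomial test and Poisson intervals used Python 3.11.15 with scipy 1.17.1. The test was checked on simulated reads whose only noise was counting error, so the check does not cover other variation between libraries. Because the values were CPM with 1 group of 2, the levels are the main result and the test on recovered reads describes the 2 libraries. A gene was detected at 1 CPM in both libraries, and differences used a pseudocount of 1 CPM, which understates the change of low genes. Named genes were all members, the 3 highest of each list and 18 genes fixed by name. Of these, 2 are not reported here, though list counts include them. Tcf3, Kitl, Pax2, Pax8, Jchain, Il2rg, Cela1, Siglech, Klk1 and B230118H07Rik were named after their values were seen. The 20 lists, members included (227 genes, 9 with no target used), were chosen with earlier results of these data known. Coordinates are from GENCODE M21 (GRCm38) and promoters from RefSeq GRCm38.p6. Protein sequences were not analysed here.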

Additional observations from a re-analysis of the deposited data

How the results depend on the processing

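No paired analysis was possible because the 2 libraries form 1 group. The calls of the 8 genes, 3 higher in library 1 and 1 higher in library 2, were the same in number with scaling by the median of ratios, with totals that left out the 100 highest targets, and with the adjustment over only those targets whose mean reached 1 CPM. The median difference of 0.57 ran from 0.26 with a pseudocount of 5 CPM to 0.69 with 0.5 CPM or with totals that left out the 100 highest targets, and was positive under each alternative run. With a difference of 2-fold or more on log2(CPM + 1) in place of the test, 0 of the 8 genes were higher in library 2 and 2 were higher in library 1, against 7.12% and 4.64% of all targets. With totals that left out the 100 highest targets, the mean summed level moved from 96.9 to 156 CPM, and from 40.8 to 65.9 CPM without Ebf1, because each total is smaller. At 10 CPM in both libraries, 2 genes were detected in place of 6. Without replicate 1 or replicate 2, 6 and 7 genes reached 1 CPM, and the test could not be run with 1 library. Reads limit the result for Rag2 and Il7r, which had 2 to 8 reads per library.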
